A study of Mus musculus with 3 samples.

Results

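The 9 genes described here encode the signalling part of the T-cell antigen receptor (TCR) and the first proteins that act on it: the CD3 chains (*Cd3d*, *Cd3e*, *Cd3g* and *Cd247*), the co-receptor *Cd4*, the receptor modulator *Cd5*, the kinases *Lck* and *Zap70* and the adaptor *Lat*. They were taken by name, and all 9 were found among the 25759 genes of the deposited tables and among the 7017 genes counted as expressed, which had an RPKM (exon reads scaled to exon length and library size) above 5 in at least 1 library. The RNA came from follicular regulatory T (TFR) cells of spleen and mesenteric lymph nodes, sorted for CD4, GFP, CXCR5 and high GITR and against B220 on day 10 after mice were given 125 µg NP-KLH, a hapten-carrier antigen, with a boost on day 7. There are 3 poly(A) RNA-seq libraries, 1 for each genotype, so no spread between mice can be given, no test was possible, and every interval below covers counting error only. The number and age of the mice behind a library are not given in the sources used here.

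The library labelled N is from Nfatc1fl/fl.Prdm1gfp/+.FIC mice. FIC is a Cre recombinase made from the *Foxp3* locus, so floxed *Nfatc1* sequence is meant to be lost in cells that express *Foxp3*, the regulatory T cell factor. The library labelled αA is from Nfatc1caaA.Prdm1gfp/+.FIC mice, whose *Foxp3*-expressing cells are meant to make constitutively active NFATc1/αA, the short isoform of that transcription factor. The library labelled PαA is from Nfatc1caaA.Prdm1gfp/fl.FIC mice, in which *Prdm1*, the gene of the repressor Blimp-1, is floxed as well. All 3 genotypes carry a gfp allele of *Prdm1*, which supplied the GFP of the sort, so a library with an intact pair of *Prdm1* alleles was not made. Cre made from this locus marks past as well as present *Foxp3* expression, so a sorted cell can carry a recombined allele without expressing *Foxp3* at the time of the sort.

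The targeted genes were read first. *Nfatc1* had an RPKM of 63.6 for the N library, 62.9 for αA and 32.4 for PαA, so its gene total did not set the library labelled NFATc1-deficient apart from the αA library, and it was lowest where NFATc1/αA should be overexpressed without Blimp-1. Reads on the floxed exons or on the transgene were not analysed here, and a gene total does not check a deletion of part of a gene. *Prdm1* had 25.6, 24.9 and 10.0, lowest in the library labelled Blimp-1-deficient. Every direction given below therefore rests on the labels. *Foxp3* (32.7, 20.9 and 15.3), *Cxcr5* (48.3, 81.3 and 47.6) and *Tnfrsf18*, the gene of GITR (303, 217 and 145), were above an RPKM of 5 in each library, as were all 9 TFR markers listed for this check. The summed RPKM of those 9 markers was 1149 in N, 1024 in αA and 584 in PαA.

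The αβ TCR binds peptide on MHC molecules but has no signalling tail of its own. It is assembled with CD3δε and CD3γε pairs and a CD3ζ dimer, whose tails carry tyrosine motifs called ITAMs. Lck, which rides on the tail of CD4, phosphorylates the ITAMs, Zap70 docks on them and is activated, and Zap70 in turn phosphorylates Lat, on which the complexes for calcium, Ras and NF-κB signalling are built. CD5 is a scavenger-receptor family protein that dampens TCR signals, and its level on T cells is known to follow the strength of TCR signalling. The calcium branch of this pathway activates calcineurin and, through it, the NFAT factors, which is why these genes are of interest in mice with altered NFATc1.

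*Cd3g*, *Cd3d* and *Cd3e* lie within 40056 bases on chromosome 9 of GRCm38, at 44969572 to 44980431 on the minus strand, 44981786 to 44987339 on the plus strand and 44998740 to 45009627 on the minus strand. *Cd3d* and *Cd3g* are transcribed away from each other from starts 1355 bases apart. *Cd247*, which encodes CD3ζ, spans 88597 bases of chromosome 1 (165788681 to 165877277), and *Zap70* lies on the same chromosome at 36761798 to 36782818. *Lck* is on chromosome 4 (129548344 to 129573641), *Cd4* on chromosome 6 (124864692 to 124888221), *Lat* on chromosome 7 (126363824 to 126369570) and *Cd5* on chromosome 19 (10718143 to 10738974). Exon lengths ran from 1023 bases for *Cd3g* to 4558 for *Cd247*. The 3′ part of *Cd247* overlaps *Pou2f1*, a gene on the opposite strand, by 12124 bases. Whether the counting used strand is not given in the sources used here, and *Pou2f1* had an RPKM of 1.44, 1.05 and 1.28 against 82.3, 87.5 and 71.7 for *Cd247*. No other member overlapped a gene with exon reads in these tables. At least 98.1% of the exon reads of each member were unique in every library.

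Promoter windows of 300 bases, from 250 before to 50 after a transcription start, were read from RefSeq for GRCm38.p6, the build of the files. Of the 9 genes 8 were matched, with 11 windows in all (2 for *Lck* and 3 for *Zap70*). *Cd4* was not matched. The windows of 4 genes are shown because the results turn on them: the divergent pair *Cd3d* and *Cd3g*, *Cd5*, which by RPKM differed most between αA and N (with TMM factors *Lck* did), and *Zap70*, which differed most between PαA and αA. Capitals mark the NFAT core GGAAA and the Blimp-1 core GAAAG on either strand (TTTCC and CTTTC on the other). The cores share letters, so GGAAAG is a match to both. Sequences run 5′ to 3′ on the strand of the gene.
Cd3g, chr9:44980382-44980681, minus strand: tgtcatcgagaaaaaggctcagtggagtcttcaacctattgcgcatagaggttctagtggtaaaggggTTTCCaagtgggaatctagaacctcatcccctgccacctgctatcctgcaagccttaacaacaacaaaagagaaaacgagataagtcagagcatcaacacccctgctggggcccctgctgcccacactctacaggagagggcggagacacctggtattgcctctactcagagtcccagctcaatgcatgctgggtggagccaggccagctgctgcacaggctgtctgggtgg
Cd3d, chr9:44981536-44981835, plus strand: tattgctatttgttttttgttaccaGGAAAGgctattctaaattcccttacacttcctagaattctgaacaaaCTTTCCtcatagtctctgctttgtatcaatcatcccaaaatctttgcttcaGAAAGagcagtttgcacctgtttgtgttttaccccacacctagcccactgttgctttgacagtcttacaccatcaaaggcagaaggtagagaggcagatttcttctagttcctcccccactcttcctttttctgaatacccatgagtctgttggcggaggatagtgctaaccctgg
Cd5, chr19:10738925-10739224, minus strand: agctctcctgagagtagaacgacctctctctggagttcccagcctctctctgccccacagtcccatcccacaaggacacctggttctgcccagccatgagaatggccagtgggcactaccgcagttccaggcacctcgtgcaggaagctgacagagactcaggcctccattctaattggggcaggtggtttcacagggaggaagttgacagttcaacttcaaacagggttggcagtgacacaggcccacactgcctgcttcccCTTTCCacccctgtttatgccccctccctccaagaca
Zap70, chr1:36761548-36761847, plus strand: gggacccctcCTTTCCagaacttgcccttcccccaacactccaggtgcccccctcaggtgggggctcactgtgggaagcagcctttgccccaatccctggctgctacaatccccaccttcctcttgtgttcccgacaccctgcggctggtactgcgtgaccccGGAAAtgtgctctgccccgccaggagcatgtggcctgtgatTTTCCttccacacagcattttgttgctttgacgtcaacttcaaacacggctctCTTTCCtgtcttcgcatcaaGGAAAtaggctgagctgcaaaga

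The *Zap70* window shown, the first of its 3, held 5 matches to GGAAA and 2 to GAAAG, while the other windows of this gene held 0 and 1, and 0 and 0. The *Cd3d* window held 2 and 3, the *Cd5* window 1 and 1, and the *Cd3g* window 1 and 0. Of the 11 windows, 7 held GGAAA and 5 GAAAG. Among all 32851 windows of this length the shares were 61.3% and 57.3%. The letters are thus common in windows of this kind, and the matches are a description, not binding sites.

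The members were among the most abundant transcripts of these cells. In N and in αA, 8 of the 9 ranked within the 350 highest of the 7017 expressed genes, and in PαA 7 did. The RPKM of the median expressed gene was 15.3, 13.7 and 13.3. Together the 9 genes accounted for 0.759% of the 27637953 exon reads of N, 0.836% of the 24258845 of αA and 0.657% of the 23269443 of PαA.

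Among the receptor chains, *Cd3g* was the highest member in every library, with 31855 exon reads (RPKM 1048) for N, 37517 (1346) for αA and 25909 (995) for PαA. *Cd3d* had an RPKM of 450.4, 553 and 472 and *Cd3e* 462, 518 and 377, in the same order of libraries. All 4 CD3 chains were highest in αA, and *Cd3e* was lowest in PαA. Whether N or PαA was lowest for the other chains changed with the scaling between libraries. *Cd247* was the lowest member by far, although each ζ chain contributes more ITAMs to a receptor than the other CD3 chains do.

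*Cd4*, whose protein was used for the sort, was highest in the N library, with 45098 exon reads or an RPKM of 488, followed by 33532 reads or 396 for αA and 26955 reads or 341 for PαA. *Cd5* went down in the same order, from 25163 reads or an RPKM of 409 to 14696 reads or 261 and 11735 reads or 223. *Lck* was lowest in N, at 24953 reads or an RPKM of 362, and stood at 31498 reads or 499 in αA and 25129 reads or 426 in PαA. *Zap70* was highest in αA, with 15727, 17299 and 10292 reads or an RPKM of 217, 261 and 166. *Lat* varied least, with 12734, 11111 and 10008 reads or an RPKM of 344, 328 and 316.

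The order of levels changed between the libraries. From highest to lowest it was *Cd3g*, *Cd4*, *Cd3e*, *Cd3d*, *Cd5*, *Lck*, *Lat*, *Zap70* and *Cd247* in N. In αA it was *Cd3g*, *Cd3d*, *Cd3e*, *Lck*, *Cd4*, *Lat*, *Zap70*, *Cd5* and *Cd247*, and in PαA *Cd3g*, *Cd3d*, *Lck*, *Cd3e*, *Cd4*, *Lat*, *Cd5*, *Zap70* and *Cd247*. The counting intervals of neighbours in this order overlapped only for *Cd3e* and *Cd3d* in N and for *Zap70* and *Cd5* in αA.

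**Figure D1:**
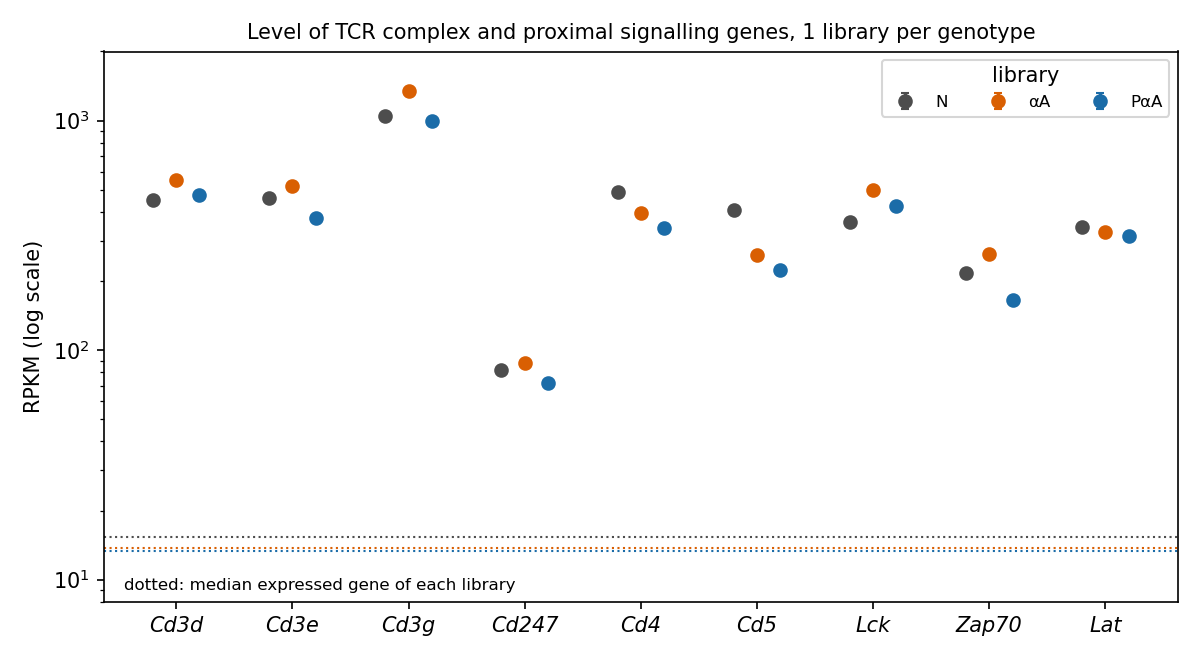
RPKM on a log scale of the 9 genes in the libraries labelled N (grey), αA (orange) and PαA (blue), with Poisson counting intervals that are mostly smaller than the points. Dotted lines mark the median expressed gene at 15.3, 13.7 and 13.3, far below every member.

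Between αA and N, which asks what overexpressed NFATc1/αA does against a deletion of NFATc1, 6 of the 9 genes were higher in αA and 3 lower, where 31.9% of expressed genes were higher. *Lck* had the largest log2 ratio at 0.46 (95% interval 0.44 to 0.49), followed by *Cd3g* at 0.36 (0.34 to 0.38), *Cd3d* at 0.30 (0.27 to 0.32), *Zap70* at 0.26 (0.23 to 0.29), *Cd3e* at 0.16 (0.14 to 0.19) and *Cd247* at 0.09 (0.05 to 0.13). *Cd5* was lower in αA, with a log2 ratio of -0.65 (-0.68 to -0.62), a change of -36.3%, and so was *Cd4* at -0.30 (-0.32 to -0.28). *Lat* differed least at -0.07 (-0.11 to -0.03), and its sign turned with the scaling (0.09 with TMM factors, which estimate library scale from the bulk of genes).

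The scaling matters here because the median expressed gene itself had a log2 ratio of -0.14 on the RPKM scale and 0.02 with TMM factors. The share of exon reads on 81 ribosomal protein genes was 12.2% for N, 13.7% for αA and 17.6% for PαA. Set against the median expressed gene, 7 of the 9 members were higher in αA, by 0.60 for *Lck* and 0.50 for *Cd3g*, and *Cd5* and *Cd4* were lower, by -0.51 and -0.16. The median log2 ratio of the 9 genes was 0.16, and 15.1% of expressed genes had a log2 ratio above that. For *Lck* 10.8%, for *Cd5* 14.8% and for *Cd4* 57.1% of expressed genes lay further from the median expressed gene.

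Of the 9 genes 0 were more than 1.5-fold higher in αA, against 3.12% of expressed genes, and 1, *Cd5*, more than 1.5-fold lower, against 11.0%. That is near the share of all genes, so the count sets the members apart in neither direction. With TMM factors the split was the other way, with *Lck* (0.62) past 1.5-fold higher and *Cd5* (-0.49) inside it, against 5.04% of expressed genes higher and 6.26% lower. No member differed 2-fold, against 4.25% of expressed genes in either direction.

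Between PαA and αA, which asks what is lost with Blimp-1 when NFATc1/αA is active, all 9 genes had a lower RPKM in PαA, where 43.1% of expressed genes had a higher one. *Zap70* differed most, with a log2 ratio of -0.65 (-0.69 to -0.62), a change of -36.4%. *Cd3e* stood at -0.46 (-0.49 to -0.43) and *Cd3g* at -0.44 (-0.46 to -0.41). *Cd247* followed at -0.29 (-0.33 to -0.25), and *Cd3d*, *Lck*, *Cd5* and *Cd4* lay close together between -0.23 and -0.22. *Lat* was again nearest to no difference at -0.05 (-0.09 to -0.01), and 0.01 with TMM factors, which kept the other 8 negative. The median of the 9 was -0.23 and that of expressed genes -0.06, and 68.6% of expressed genes had a log2 ratio above the members' median. Of the expressed genes 14.2% lay further from their median than *Zap70*.

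*Zap70* was the member more than 1.5-fold lower in PαA, against 9.19% of expressed genes. None was that much higher, against 5.52%. With TMM factors *Zap70* had -0.58, just inside 1.5-fold, and the shares of expressed genes were 7.42% lower and 6.98% higher. No member differed 2-fold, against 4.60% of expressed genes. This comparison and that of αA with N share the αA library, so a reading of αA that is off in one direction would move both in opposite directions.

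PαA was also set against N, a comparison of libraries that differ in both genes. *Cd5* was lower by the most, with a log2 ratio of -0.88 (-0.91 to -0.85), a change of -45.6%. *Cd4* had -0.52 (-0.54 to -0.50), *Zap70* -0.39 (-0.42 to -0.35) and *Cd3e* -0.29 (-0.32 to -0.26). The median of the 9 was -0.20, beside -0.19 for expressed genes. Of expressed genes 17.6% lay further from their median than *Cd5*, 49.4% than *Cd4*, 67.6% than *Zap70* and 82.2% than *Cd3e*. With TMM factors *Cd4* had -0.29, *Zap70* -0.16 and *Cd3e* -0.06. *Lck* was higher in PαA at 0.23 (0.21 to 0.26), under each of the 4 other scalings as well (0.04 to 0.48). The signs of *Cd3d* (0.07), *Cd3g* (-0.07), *Cd247* (-0.20) and *Lat* (-0.12) turned with the scaling, so no direction is given for them. *Cd5* was the member more than 1.5-fold lower, against 22.3% of expressed genes, and no member was that much higher, against 5.67%. With TMM factors *Cd5* (-0.65) was still past 1.5-fold, and the shares of expressed genes were 12.2% lower and 11.8% higher. No member was past 2-fold by RPKM, against 10.3% of expressed genes.

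**Figure D2:**
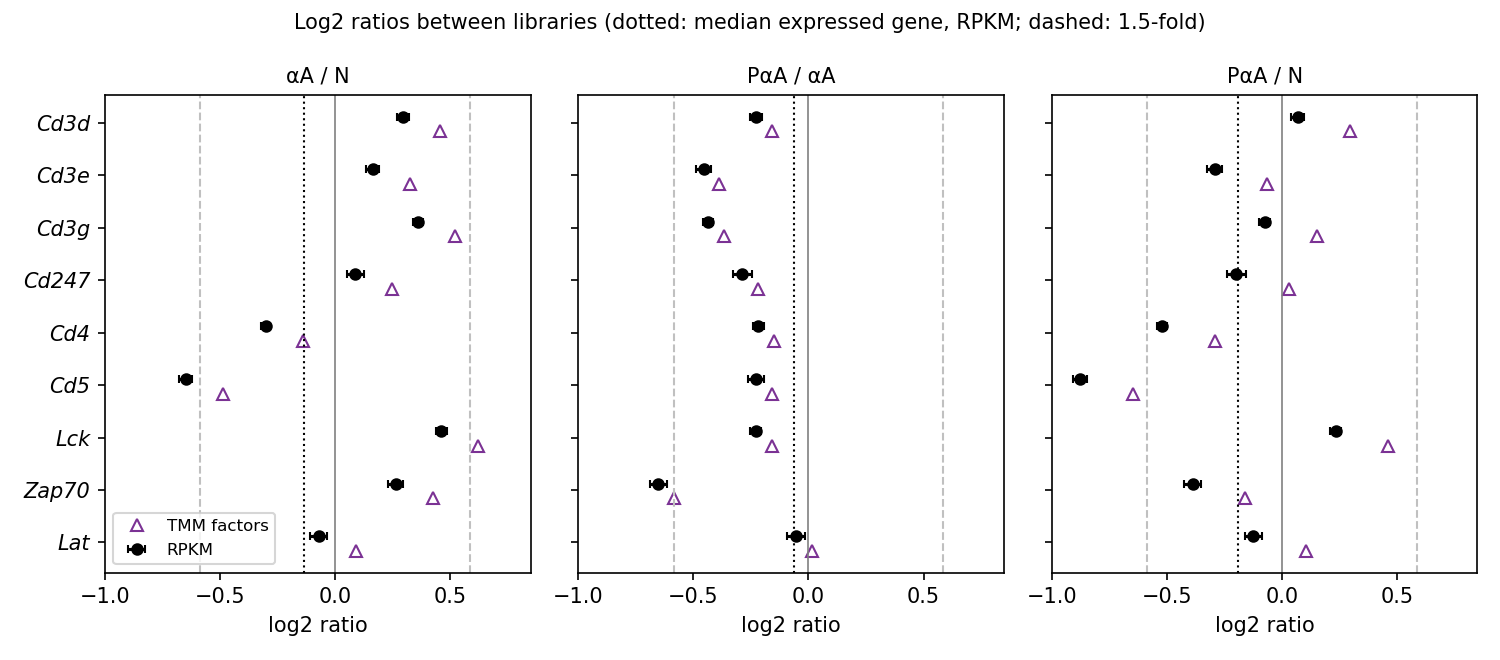
Log2 ratios of the 9 genes between the libraries, αA over N, PαA over αA and PαA over N, by RPKM (black points, bars for the 95% counting interval) and with TMM factors (open triangles). Dotted lines mark the median expressed gene by RPKM (-0.14, -0.06 and -0.19) and dashed lines 1.5-fold. *Cd5* and *Cd4* lie to the left and *Lck* to the right in the comparison of αA with N, and *Zap70* lies furthest left in that of PαA with αA.

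Ratios between members inside a library do not depend on how libraries are scaled. There are 36 pairs of the 9 genes. From N to αA the ratio of *Cd5* to *Lck* changed most of all pairs, from 1.13 to 0.522, and it was 0.523 in PαA. From αA to PαA the pair *Zap70* and *Lat* changed most, from a ratio of 0.797 to 0.526, by 0.60 on the log2 scale. Of the 36 pairs, 9 changed more than 1.5-fold from N to αA, 1 from αA to PαA and 8 from N to PαA. Each of the 9 held *Cd5* or *Cd4*, so that count largely restates the change of these genes. Pairs of other expressed genes were not counted, so the numbers do not set the members apart. The ratio of *Cd4* to *Lck* had the same course as that of *Cd5* to *Lck*, at 1.35, 0.794 and 0.7997. Both ratios set N apart from the other libraries and lay close together in αA and PαA.

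*Cd3g* made up 51.3%, 53.8% and 51.9% of the summed RPKM of the 4 CD3 chains in N, αA and PαA. The share of *Cd3e* was 22.6%, 20.7% and 19.7%, and that of *Cd3d* 22.1%, 22.1% and 24.7%. *Cd247* had 4.03%, 3.49% and 3.74%. Between PαA and N the balance of *Cd3d* to *Cd3e* shifted most among these chains, with an RPKM ratio of 0.974 in N, 1.07 in αA and 1.25 in PαA.

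**Figure D3:**
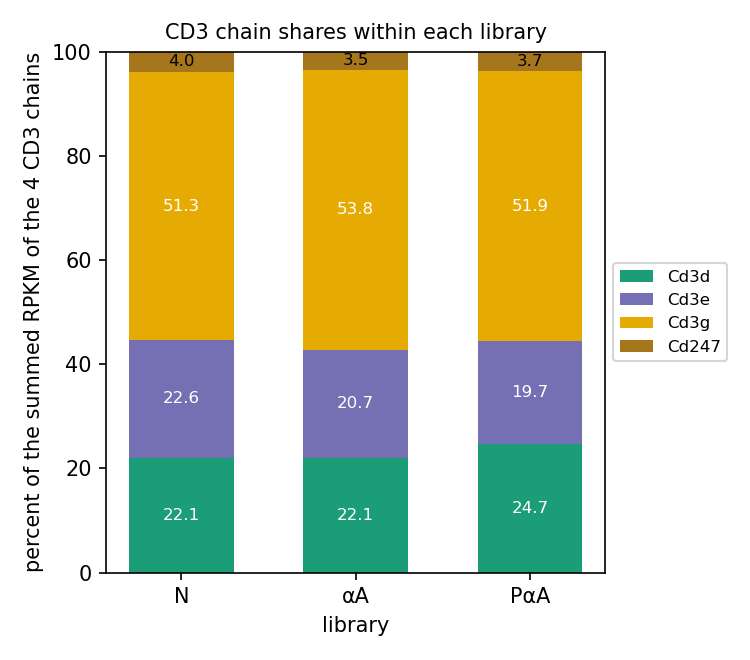
Share of each CD3 chain in the summed RPKM of *Cd3d*, *Cd3e*, *Cd3g* and *Cd247*, in percent, stacked for the N, αA and PαA libraries. *Cd3g* holds more than 51% in each library, and the part of *Cd3e* is largest in N at 22.6% and smallest in PαA at 19.7%.

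Reads in introns, which can come from RNA that is not yet spliced, gave a second readout of the same genes. Over all genes their share of gene reads was 3.62%, 5.30% and 3.91% (N, αA, PαA), and they were few for most members. The intron reads of *Zap70* numbered 108 for N, 184 for αA and 61 for PαA. Their log2 ratio per library total was 0.89 (0.54 to 1.25) for αA over N and -1.50 (-1.94 to -1.07) for PαA over αA, the same directions as its exon reads and larger. Scaled to all intron reads instead, of which αA had most, the ratios were 0.38 (0.03 to 0.74) and -1.07 (-1.52 to -0.65). *Cd5* had 330, 212 and 185 intron reads, a log2 ratio of -0.51 (-0.77 to -0.26) between αA and N, close to the -0.65 of its exon reads. For PαA over αA its introns gave -0.10 (-0.39 to 0.19) per library total and 0.32 (0.03 to 0.61) per intron total, where its exon reads gave -0.23. *Cd4* had 163, 98 and 56, again lower in αA than in N at -0.61 (-0.98 to -0.24). Scaled to all intron reads the ratios of *Cd5* and *Cd4* for αA over N were -1.03 and -1.12. *Cd247* had the most intron reads with 755, 918 and 589, but its ratio for αA over N was 0.41 (0.27 to 0.55) per library total and -0.10 (-0.25 to 0.04) per intron total, so its direction rests on the scaling.

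For *Lck* and *Cd3e* the intron reads did not have the direction of the exon reads between αA and N. *Lck* had 393, 332 and 204 intron reads, a log2 ratio of -0.12 (-0.33 to 0.10) between αA and N, where its exon reads gave 0.46, and -0.63 (-0.85 to -0.42) per intron total. *Cd3e* had 318, 266 and 137, with -0.13 (-0.37 to 0.11) per library total and -0.64 (-0.88 to -0.40) per intron total, where its exon reads gave 0.16. *Cd3g* had only 24, 10 and 55 intron reads, and they went against the exon reads in both comparisons, with -1.14 (-2.37 to -0.02) for αA over N and 2.56 (1.57 to 3.69) for PαA over αA. Per library total, intron and exon ratios had the same sign for 6 of 9 genes between αA and N and for 8 of 9 between PαA and αA, and per intron total for 4 of 9 and 6 of 9. Exon-exon junction reads gave the sign of all exon reads for the members in every comparison.

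**Figure D4:**
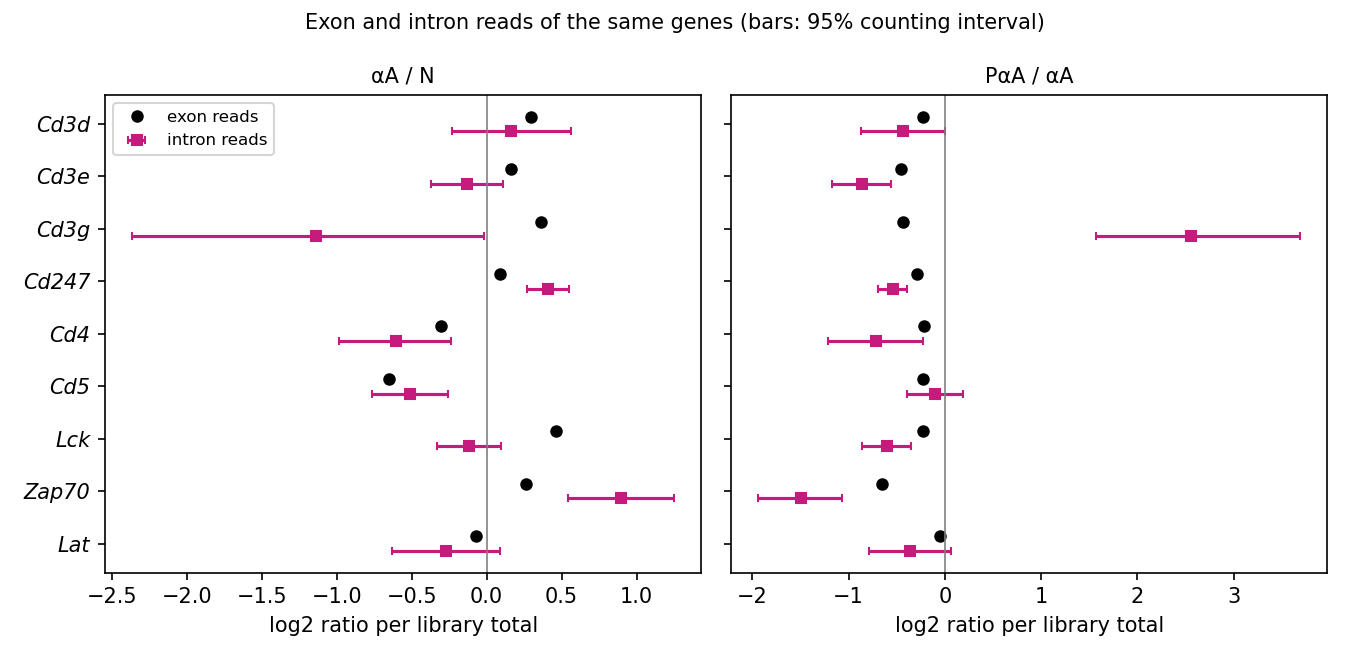
Log2 ratios per library total of exon reads (black circles) and intron reads (pink squares, bars for the 95% counting interval) of the 9 genes, αA over N and PαA over αA. The intron reads of *Zap70* lie further from 0 than its exon reads in both panels (0.89 and -1.50), and those of *Cd3g*, 10 to 55 per library, lie on the opposite side.

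The wider pathway was read from 5 lists with 63 further genes, of which 56 were expressed. Between αA and N, 4 of the 56 were more than 1.5-fold higher and 11 lower (5 and 4 with TMM factors), with a median log2 ratio of -0.19. Between PαA and αA 2 were higher and 13 lower (2 and 10 with TMM factors), with a median of -0.28. Of all expressed genes 3.12% were higher and 11.0% lower between αA and N (5.04% and 6.26% with TMM factors). Between PαA and αA 5.52% were higher and 9.19% lower (6.98% and 7.42% with TMM factors).

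Among 8 co-receptors and costimulators, *Cd6* encodes a close relative of CD5 and also lies on chromosome 19. Its exon reads numbered 25627 for N, 10794 for αA and 7904 for PαA, an RPKM of 284, 131 and 102. Its log2 ratio was -1.12 (-1.15 to -1.09) for αA over N and -0.35 (-0.39 to -0.31) for PαA over αA, so it was lower in the same order of libraries as *Cd5*. *Trat1*, a TCR-associated transmembrane adaptor, was lower in αA than in N (RPKM 18.0 against 39.5, log2 ratio -1.14) and higher in PαA (50.6, log2 ratio 1.49 against αA). *Themis*, whose protein binds the phosphatase SHP-1, had the same course with 20.9, 13.4 and 18.8. *Cd27*, a costimulator of the TNF receptor family, went the opposite way, at 132, 265 and 136, but only 19.1% to 22.0% of its exon reads were unique, so its level is uncertain. *Icos* had 184, 219 and 114 and was more than 1.5-fold lower in PαA than in αA.

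Of the other proximal kinases and their regulators, 5 of 7 were expressed. *Txk*, a Tec family kinase, was higher in αA and again in PαA, from 187 reads in N to 429 in αA and 698 in PαA, an RPKM of 2.58, 6.45 and 11.2. *Ptprc*, which encodes CD45, the phosphatase that keeps Lck ready for activation, had 263, 185 and 115, with a log2 ratio of -0.51 (-0.53 to -0.49) for αA over N and -0.69 (-0.72 to -0.66) for PαA over αA. *Fyn*, another Src kinase of T cells, at 108, 112 and 76.7, and *Csk*, which inhibits Lck, at 98.0, 109 and 104, stayed inside 1.5-fold in these comparisons.

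Among the adaptors and effectors, 17 of 19 were expressed. Between αA and N 4 of these were more than 1.5-fold lower, against 11.0% of all expressed genes, and 1 higher, against 3.12%. Among those lower were *Rasgrp1* (log2 ratio -0.74), which activates Ras, *Plcg1* (-0.72), the phospholipase that starts the calcium signal, and *Grap2* (-0.61), an adaptor that links Lat to SLP-76. None of these 4 was past 1.5-fold with TMM factors, against 6.26% of all expressed genes lower, and 33.6% to 40.2% of the *Plcg1* reads were unique. *Rhoh*, a GTPase that helps Zap70 reach the receptor, was higher in αA, with an RPKM of 29.2 in N, 52.2 in αA and 41.3 in PαA. *Malt1*, a protease of the NF-κB branch, was the gene of this list past 1.5-fold between PαA and αA, with 18.9, 25.0 and 9.41. Of all expressed genes 9.19% were that much lower.

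The negative regulators numbered 19, of which 17 were expressed. Between αA and N *Ubash3b* was higher (0.74) and *Ptpn6* (-0.64), the gene of SHP-1, and *Itch* (-0.61) lower. Of all expressed genes 3.12% were higher and 11.0% lower. With TMM factors *Ptpn6* and *Itch* were inside 1.5-fold and *Sla2* (0.59) was higher, against 5.04% of all expressed genes higher and 6.26% lower. Between PαA and αA *Cbl* (-0.94), *Cblb* (-0.66) and *Ptpn22* (-0.62) were lower by more than 1.5-fold and 0 higher, with *Ptpn22* inside 1.5-fold with TMM factors. Of all expressed genes 9.19% were that much lower and 5.52% higher in this comparison (7.42% and 6.98% with TMM factors). Cbl and Cbl-b are ubiquitin ligases that limit the TCR pathway, and the phosphatase of *Ptpn22* acts on Lck and Zap70.

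TCR signals also switch on a set of early response genes. Of 10 listed, 9 were expressed, and 5 of these were more than 1.5-fold lower in PαA than in αA, against 9.19% of all expressed genes (7.42% with TMM factors): *Egr1* (-1.37), *Nr4a3* (-1.34), *Egr2* (-1.34), *Egr3* (-0.77) and *Cd69* (-0.65), of which *Cd69* was inside 1.5-fold with TMM factors. *Nr4a1* had an RPKM of 39.6, 21.3 and 14.2 and was more than 1.5-fold lower in αA than in N, like *Nr4a3*. That made 2 of the 9, also with TMM factors, against 11.0% of all expressed genes (6.26% with TMM factors). The median log2 ratio of these 9 was -0.23 for αA over N and -0.65 for PαA over αA.

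**Figure D5:**
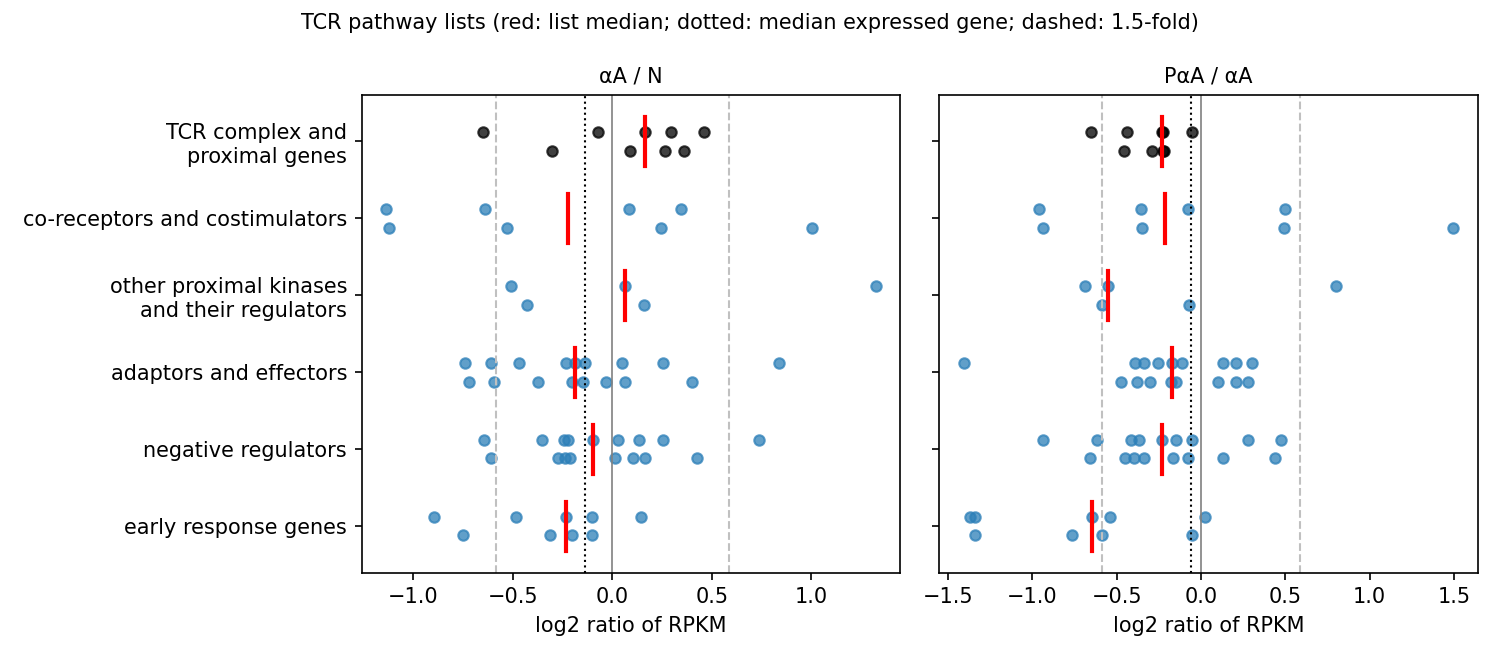
Log2 ratio of RPKM for each expressed gene of the TCR complex and proximal genes (black) and of 5 wider lists (blue), αA over N and PαA over αA. Red bars mark list medians, the dotted line the median expressed gene and dashed lines 1.5-fold, and the early response genes have the lowest median in the comparison of PαA with αA (-0.65).

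Some of the 9 genes are also expressed by other lymphocytes. The sort for CD4, GFP, CXCR5 and high GITR and against B220 was meant to leave other cells out, but RNA of other cells was present. In bulk RNA, fewer cells of a type and less RNA per cell cannot be told apart. Of the 2 CD8 T cell markers, *Cd8b1* stood at an RPKM of 9.07, 12.0 and 5.24 and *Cd8a* at 0.193, 2.10 and 2.90, against 341 or more for *Cd4*. Of 6 NK cell markers the sum was 24.8, 27.1 and 36.3, mostly *Fcer1g* (16.9, 21.0 and 26.9), with *Klra8* at 0 in αA and PαA. *Klrb1c* (2.92, 4.23 and 5.90) had the order of the sum. *Eomes* (3.32, 0.910 and 3.02), *Klre1* (0.799, 0.590 and 0.220) and *Ncr1* (0.262, 0.358 and 0.255) did not. Of the 5 γδ T cell markers only *Sox13* had an exon length in the tables, at 0.054 in N and 0 in αA and PαA. The part of these cells in the levels of the 9 genes was not tested.

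Markers of cells that lack CD3 moved between libraries too. The 6 erythroid markers summed to an RPKM of 573 in N, 2409 in αA and 2153 in PαA, led by *Hba-a2*, a haemoglobin gene, at 244, 1070.2 and 883, of whose reads 6.2% to 6.6% were unique. The 8 myeloid markers with data, of 9 listed, summed to 269, 164 and 252 (*Lyz2* 214, 134 and 184, with *S100a9* at 0 in αA), and the 7 dendritic cell markers to 404, 278 and 325 (*Cd74* 325, 160.1 and 140.0). In the dendritic cell list *H2-Aa* (47.4, 68.2 and 107) and *H2-Ab1* (30.0, 47.7 and 74.5) went the opposite way from *Cd74*, and in the myeloid list *Csf1r* (6.25, 10.6 and 6.62) and *Adgre1* (2.30, 5.32 and 4.93) were higher in αA than in N. These 4 were named after their values were seen. The 4 plasma cell markers with data, of 6, summed to 49.2, 67.1 and 108 (*Jchain* 44.3, 58.4 and 94.8, with *Tnfrsf17* at 0 in PαA), and the 6 B cell markers with data, of 8, to 20.5, 14.8 and 16.0 (*Cd79b* 11.5, 8.85 and 8.67). Their part in the levels of the 9 genes was not tested.

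As a guide to genes with a like course, the 3409 expressed genes outside these lists with at least 1000 exon reads in each library were ranked by the distance of their log2 ratios (αA over N and PαA over αA) from the medians of the 9 members. The nearest 5 were *Sar1b*, *Eapp*, *Dcaf12*, *Dcaf15* and *Oxsr1*, at distances of 0.0066 to 0.040. *Sar1b*, the nearest, had an RPKM of 72.8, 81.1 and 69.2. Within a distance of 0.1 lay 72 of the 3409 genes (2.11%). The course compared is the median of a list, not that of a gene. No reference value was computed for this share, so nothing is concluded from it.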

How the data were processed

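RNA-seq of sorted TFR cells gave 1 library per genotype. The authors prepared poly(A) libraries, sequenced short single reads, removed adapter sequence, and mapped and counted the reads on GRCm38 with CLC Genomics Workbench at default settings. The annotation release is not given in the sources used here. For each gene the authors deposited raw counts of total and unique exon reads, junction, intron and gene reads, and RPKM and TPM. Genes with an exon length of 0 (3715 of 25759) were left out.

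Dividing exon reads by exon length and RPKM gave the library totals on which the RPKM rest, 29726219 (N), 27239921 (αA) and 25465829 (PαA). Log2 ratios are ratios of RPKM, with exact Clopper-Pearson 95% intervals from the reads of both libraries. The reads are PCR products without molecular identifiers, so intervals cover counting error only, and with 1 library per genotype no test was run. Under 3 reads a library was set at 3. Calls were folds of 1.5 and 2 among genes with an RPKM above 5. Members and lists were chosen with earlier results of these data known. Genes named are the members, the list genes past 1.5-fold or of highest level, the markers, and the 5 nearest genes. Some genes of the wider lists are counted in the list totals but not reported here by name. TMM factors came from edgeR 4.0.16 in R 4.3.3, and the rest was computed in Python 3.11.15 (scipy 1.17.1, numpy 2.4.6, pandas 2.3.3; figures, matplotlib 3.10.9). Ratios and intervals were tested on simulated Poisson counts. These hold neither PCR duplication nor spread between mice, so that test checks the calculation only. Alternatives were TPM, TMM and median-of-ratios factors, totals without ribosomal protein genes, unique exon, gene or junction reads, and pseudocounts of 1 and 0.1.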

Additional observations from a re-analysis of the deposited data

How the results depend on the processing

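Each comparison rests on 1 library per genotype, so counting depth is not the limit and the spread between mice is unknown. No paired analysis was possible because each genotype has 1 library. The median log2 ratio of the 9 genes between αA and N was 0.13 with TPM, 0.32 with TMM factors, 0.34 with median-of-ratios factors, 0.25 with totals without ribosomal protein genes and 0.29 when centred on the 500 expressed genes of nearest exon length, an alternative chosen after seeing the data. Between PαA and αA it was -0.39, -0.16 and -0.16 with the first 3. Between PαA and N it was -0.40 with TPM, -0.0817 without ribosomal protein genes and -0.27 by length, and reversed to 0.0296 with TMM and 0.0450 with median-of-ratios factors. The number of members past 1.5-fold between αA and N was 0 without ribosomal protein genes and 0 by length. Between PαA and αA it was 3 with TPM, all lower (16.6% of expressed genes were), 2 by length and 0 with TMM and median-of-ratios factors, and between PαA and N 3 with TPM, all lower (34.8% of expressed genes were), where 1 member was past 2-fold. TMM, median-of-ratios and totals without ribosomal protein genes turned *Lat* between αA and N to 0.0903, 0.10 and 0.0169 and *Cd3g* between PαA and N to 0.15, 0.17 and 0.0428. TMM and median-of-ratios factors turned *Lat* between PαA and αA to 0.0143 and 0.0188, *Lat* between PαA and N to 0.10 and 0.12 and *Cd247* between PαA and N to 0.0296 and 0.0450, which length centring put at 0.17. TPM put *Cd3d* between PαA and N at -0.13. Unique reads, gene reads, junction reads and pseudocounts of 1 and 0.1 turned no member's direction. The cause of these moves was not tested.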
